A study of Homo sapiens with 3 samples.

Results

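Reads of U3, the box C/D small nucleolar RNA (snoRNA) transcribed from SNORD3A and its copies, were described in 3 small RNA libraries of HEK293 cells, an established human embryonic kidney line. The 3 libraries form 1 group of the same line, grown in serum-supplemented medium, and the labels name no treatment. They were made from bead-purified small RNA, and the labels do not say whether they came from separate cultures. The U3 reads were those placed by the authors on either of the 2 U3 entries, SNORD3A and SNORD3B-2, of 260 snoRNA entries in all. Entries U30 to U39 are other snoRNAs and were not taken. Libraries 1, 2 and 3 held 71, 71 and 125 U3 reads among 19989, 11958 and 19092 snoRNA counts, which is 0.355%, 0.594% and 0.655%. The mean share was 0.535% ± 0.16 (SD, n = 3). With 267 reads in all, a place or size seen in a few reads is known only roughly, and 95% intervals below are exact binomial ones that cover counting error alone. Library 2 had shorter reads than the others throughout, with 26.9% of its non-U3 snoRNA counts at up to 40 nt, against 11.8% and 11.9% in libraries 1 and 3.

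U3 does not guide a methylation. It takes part in the early cleavages of the rRNA precursor that release the RNA of the small ribosomal subunit, and its 5′ part, with box A and the single-stranded hinges, base-pairs with that precursor. Its 3′ part holds the boxes C′, B, C and D, on which the core box C/D proteins and the U3-specific protein RRP9 assemble. Unlike most human snoRNAs, which are cut from introns, U3 is transcribed from genes of its own and carries a trimethylguanosine cap. The title of the series names U3 as a source of miRNAs, the small regulatory RNAs that find their targets through a seed near their 5′ end.

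GENCODE 29 annotates SNORD3A as a snoRNA gene on the plus strand of chromosome 17, from 19188016 to 19188232 (GRCh38). Its 217 nt are shown because all positions below are counted on them from the 5′ end, with the searched letters of the boxes in capitals in the order A (GGATCAT, 17 to 23), C′ (ACGAGGA, 78 to 84), B (GAGCGTG, 106 to 112), C (TGATGA, 158 to 163) and D (GTCTGA, 207 to 212).
SNORD3A: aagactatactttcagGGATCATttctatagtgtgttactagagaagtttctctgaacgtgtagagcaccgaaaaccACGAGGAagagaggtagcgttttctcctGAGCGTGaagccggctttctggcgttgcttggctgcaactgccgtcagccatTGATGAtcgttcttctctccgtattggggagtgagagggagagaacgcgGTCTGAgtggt
Each motif was found once in SNORD3A on the sense strand, the strand searched here, and none overlapped another. RNAfold predicted a fold of -83.2 kcal/mol with 6 helices. Helix 1 closed the 5′ part (5 to 33 with 37 to 64), bases 65 to 74 were an unpaired linker, helix 2 joined the base of the 3′ part (75 to 84 with 208 to 217), and helix 3 stacked above it (94 to 105 with 194 to 205). Helices 4, 5 and 6 lay between these arms, from 106 to 193. This fold is a prediction and was not probed in cells. It sets box A (17 to 23) in helix 1, while box A pairs with the rRNA precursor. The hinges were not placed on the sequence. The structural terms below refer to this fold and need not hold for U3 bound to the precursor.

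Of the 90 U3 reads of 20 to 24 nt, 84 came from 3 places in the RNA: the 5′ arm of the basal stem of the 3′ part, its 3′ arm, and the 3′ arm of the stem in the 5′ part. Their 5 most read forms over the 3 libraries together carry a part of the miRNA-sized signal. Other forms held the rest, and the order of forms differed between libraries. The 5 forms are shown with bases 2 to 8, the seed position in a miRNA, in capitals.
U3 76-96: cCACGAGGaagagaggtagcg
U3 195-216: gGAGAGAAcgcggtctgagtgg
U3 195-217: gGAGAGAAcgcggtctgagtggt
U3 194-216: gGGAGAGAacgcggtctgagtgg
U3 45-67: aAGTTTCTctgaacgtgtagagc
On chromosome 17 these lie at 19188091 to 19188111, 19188210 to 19188231, 19188210 to 19188232, 19188209 to 19188231 and 19188060 to 19188082. The sequences are those of the gene, since the letters of the reads are not part of the files used here. The 3 forms from 194 or 195 overlap and share most of their bases, but the form from 194 has a seed shifted by 1 base.

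U3 reads of miRNA size and reads over 100 nt were the most frequent size classes over the 3 libraries together, in shares that differed between libraries. Reads of 20 to 24 nt numbered 23, 46 and 21, which is 32.4%, 64.8% and 16.8% of U3 reads in libraries 1, 2 and 3 (38.0% ± 24, SD, n = 3, and 24.6% without library 2). Reads over 100 nt numbered 26, 4 and 77, which is 36.6%, 5.63% and 61.6%. Between them lay 10, 12 and 13 reads of 25 to 40 nt and 9, 0 and 13 reads of 41 to 100 nt. The shares of the 20 to 24 nt reads and of those over 100 nt moved in opposite directions. As parts of a fixed total, these shares are not independent, so a rise in one tends to lower the other. Library 2 lay at the short end and library 3 at the long end. The median U3 read had 40, 22 and 136 nt, against 67, 64 and 68 nt for the reads of other snoRNAs. The 20 to 24 nt counts differed less between libraries 1 and 3 than the counts over 100 nt. The effect of the shorter reads of library 2 on these shares was not tested.

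**Figure D1:**
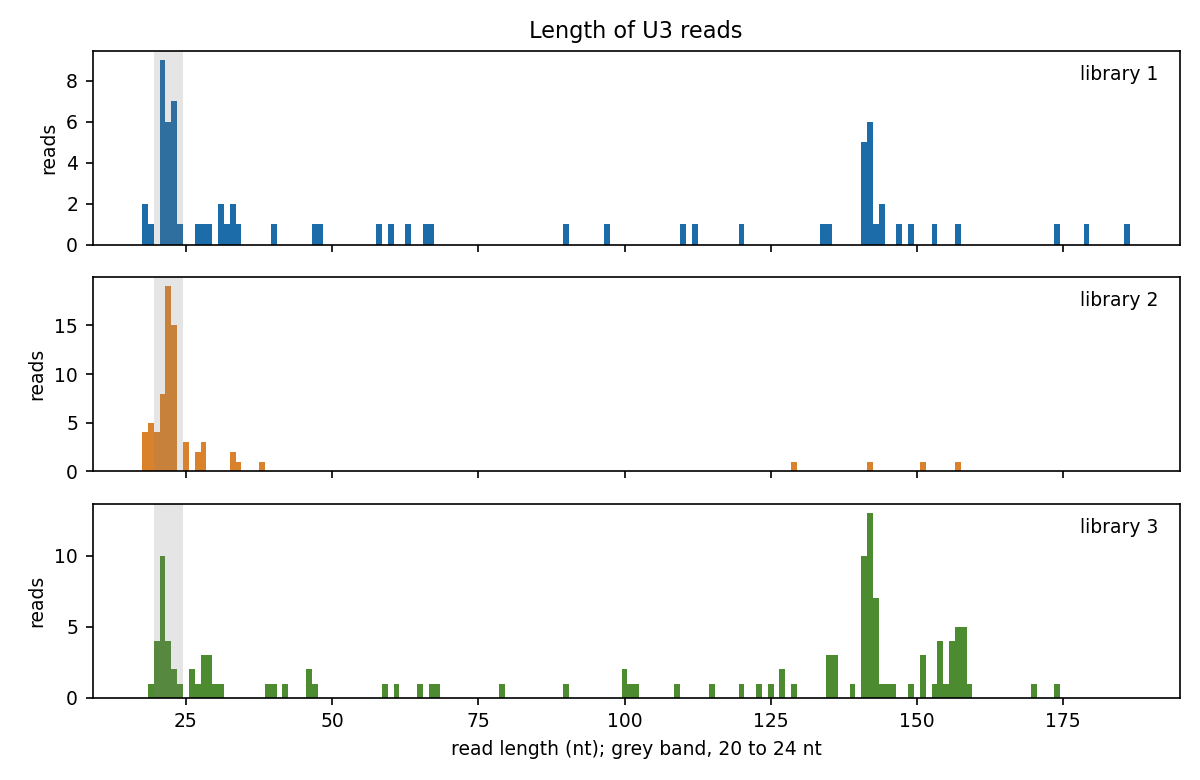
Number of U3 reads (y axis) by read length in nt (x axis) in each of the 3 libraries, with the range of 20 to 24 nt in grey. Libraries 1 and 3 show a short group and a long group at 130 to 160 nt (20 and 65 reads), and library 2 shows 67 of its 71 reads at up to 40 nt.

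No U3 read was close to full length. In libraries 1, 2 and 3, 0 of 71, 71 and 125 reads spanned at least 90% of the RNA. The longest U3 span was 185, 157 and 174 nt, where the longest read of any snoRNA had 238, 181 and 193 nt. A read of 90% of U3 was thus beyond the observed read lengths in libraries 2 and 3, and their 0 gives no bound. In library 1 the 0 of 71 allows a share of up to 4.23% by the floor of 3 counts. Other box C/D snoRNAs with 10 or more counts in each library (108 with U3) had a median share of near full-length reads of 70.3%. Length there was the highest position seen. Most human snoRNAs are cut from introns while U3 is capped, and the part of this in the contrast was not tested. At the 5′ end, 0, 0 and 2 reads began at base 1, and 2, 3 and 3 reads began before base 33. Box A, which pairs with the rRNA precursor, lay within 0, 3 and 3 reads. Box D, near the 3′ end, lay within 36, 28 and 67 reads, which is 50.7%, 39.4% and 53.6% of U3 reads. The 3′ end was read more often than the 5′ end in each library.

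**Figure D2:**
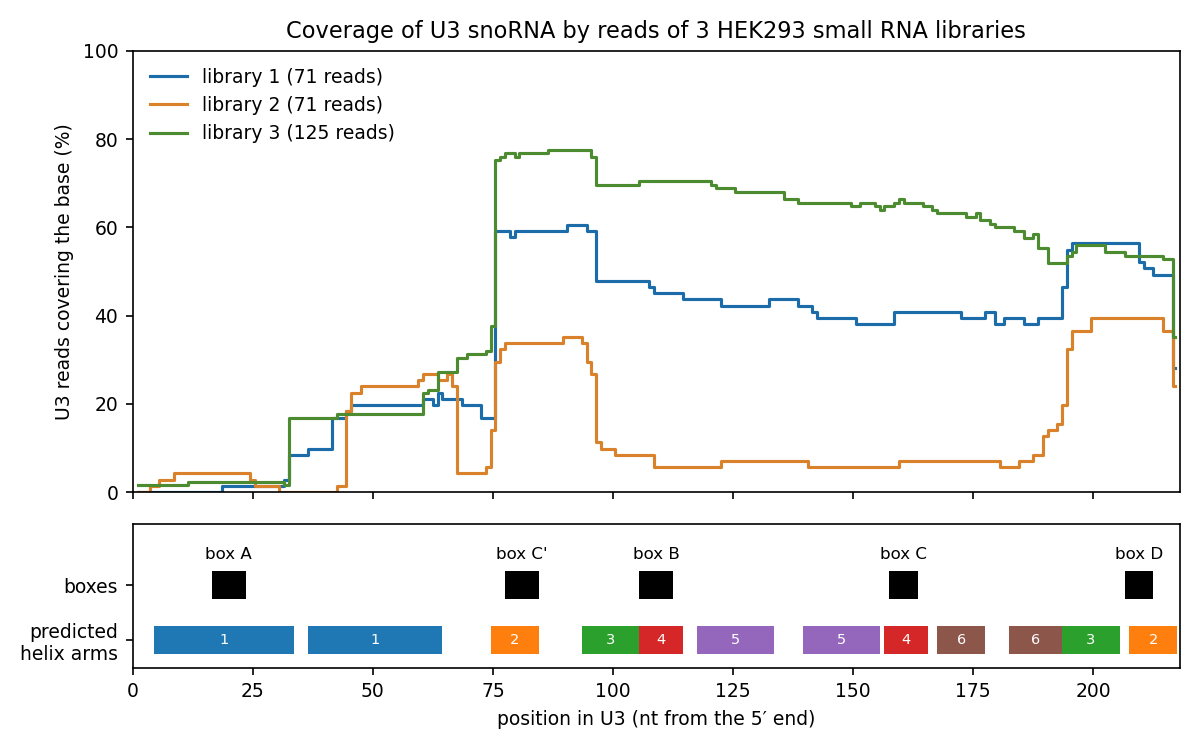
Percent of U3 reads that cover each base (y axis) against the position in U3 in nt (x axis), 1 line per library, above the boxes and the predicted helix arms numbered 1 to 6. Coverage steps up at base 76 in all 3 libraries and falls after base 96, and in library 2 it is at most 12.7% from base 97 to base 190.

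The junction before base 76 was the most used start over the 3 libraries together, but not in library 2, where base 45 had 12 starts and base 76 had 11. Reads that began at 75 to 77 numbered 31, 19 and 55, which is 43.7%, 26.8% and 44.0% of U3 reads (38.1% ± 9.9, SD, n = 3), with 95% intervals of 31.9% to 56%, 16.9% to 38.6% and 35.1% to 53.2%. Exactly at base 76, 30, 11 and 47 reads began. Base 76 lies 2 nt before the box C′ motif, at the border between the unpaired linker and helix 2, where base 75 is paired with 217 and base 76 with 216. From this start the reads ended mainly at either of 2 places. Those that ran on to the 3′ end (216 or 217) numbered 13, 1 and 36 and hold all of the boxes C′, B, C and D. Those that stopped at 94 to 96 numbered 9, 14 and 10. The remaining 9, 4 and 9 stopped elsewhere. As shares of U3 reads, the long products from this start were 18.3%, 1.41% and 28.8%, and the short ones 12.7%, 19.7% and 8.0%. Both shares differed between libraries, with library 2 lowest in long and highest in short products.

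Over the 3 libraries together the most read U3 molecule was the whole 3′ part, 76 to 217, with 7, 1 and 17 reads. It led in library 3 only, behind 76 to 96 in library 1 and behind 45 to 67, among others, in library 2. The form 1 base shorter, 76 to 216, had 5, 0 and 13. The 21 nt piece from 76 to 96, which holds box C′, came next to 76 to 217 over the libraries together, with 8, 4 and 7 reads. It was among the 6 of 125 distinct start and end pairs seen in all 3 libraries. The 22 nt piece from 75 to 96 had 0, 4 and 1 reads. In the predicted fold 10 of the 21 bases of 76 to 96 were paired, and all 10 had their partner between 194 and 217. Reads that lay wholly within the 3′ part, taken from 5 nt before box C′ on, made up 71.8%, 67.6% and 67.2% of U3 reads (68.9% ± 2.6, SD, n = 3). The value rests on where the boundary is set: with it 5 nt later, which leaves out the starts at 75 to 77, the mean share was 30.0% ± 8.7 (SD, n = 3).

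**Figure D3:**
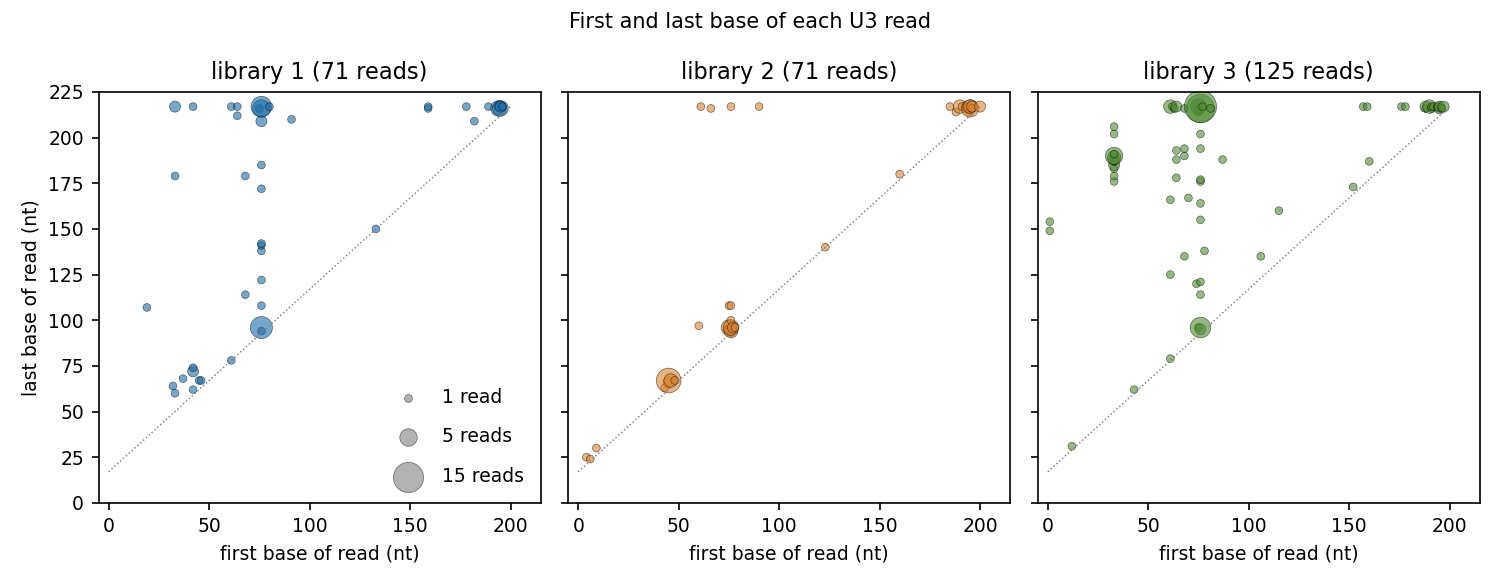
First base (x axis, nt) and last base (y axis, nt) of each U3 read in the 3 libraries, with point area proportional to the number of reads and a dotted line at a read length of 18 nt. A column of points at a first base of 76 runs from the short reads that end at 96 up to the reads that end at 217, and library 3 has a group at a first base of 33.

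The 3′ end gave the other recurrent set of short reads. Ends at 216 or 217 were found in 35, 26 and 66 reads, which is 49.3%, 36.6% and 52.8% (46.2% ± 8.5, SD, n = 3). End 217, the annotated last base, had 20, 17 and 44 reads, and end 216 had 15, 9 and 22. The short reads that finished here began mostly at 194 to 196. Within 20 to 24 nt, reads from 194 to 197 that ended at 214 to 217 numbered 12, 14 and 8. The form 195 to 216 had 4, 5 and 2 reads, 195 to 217 had 2, 3 and 2, and 194 to 216 had 4, 2 and 0. All of them hold box D. In the predicted fold 18 of the 22 bases of 195 to 216 were paired, 10 of them with bases of 76 to 96 and 8 with bases 97 to 104, so that the short reads of both arms lie partly opposite each other. Both sets were seen in every library. A piece of 28 nt from 190 to 217 had 0, 3 and 3 reads.

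The 5′ part was read less evenly. Reads that ended before box C′ numbered 9, 20 and 2, which is 12.7%, 28.2% and 1.60% of U3 reads (14.1% ± 13, SD, n = 3, and 7.14% without library 2). Most of these in library 2 were 20 to 24 nt reads from 42 to 48 that ended at 62 to 67, on the 3′ arm of helix 1. They numbered 3, 17 and 1. The commonest of them, 45 to 67, had 1, 10 and 0 reads, and 18 of its 23 bases were paired in the predicted fold. Most reads of this place came from library 2, while both places in the 3′ part had 8 or more reads in every library. The places at 42 to 67, 75 to 96 and 194 to 217 were chosen after their values were seen. Together they held 23 of 23, 42 of 46 and 19 of 21 of the U3 reads of 20 to 24 nt.

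Long reads also began upstream of base 76. Base 33, the last paired base before the loop of helix 1 (34 to 36), was the start of 4, 0 and 19 reads. Of these 1, 0 and 17 ended between 176 and 191, mostly within the 3′ arm of helix 6 (183 to 193), with 33 to 190 the commonest at 0, 0 and 5 reads. They lack box D and the basal 3′ arm. This group made up 13.6% of U3 reads in library 3, 1.41% in library 1 and 0 of 71 in library 2, which allows up to 4.23%. A read from 33 to 217 would span 185 nt, while the longest U3 read of library 3 had 174 nt. Whether the molecules or only the reads ended at 176 to 191 was not tested. Starts at 60 to 68, around the last bases of helix 1 and the first bases of the linker, numbered 6, 3 and 17, and 2, 2 and 8 of these reads ran to 216 or 217. Read starts did not in general lie in unpaired stretches. For 6.36% ± 0.71 of U3 reads (SD, n = 3) both the first base and the base before it were unpaired, against 18.5% of all junctions in the RNA. This is a description of reads that share few starts.

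Long U3 reads often had a length unlike the distance between their first and last base. This held for 11 of 26, 1 of 4 and 28 of 77 U3 reads over 100 nt in libraries 1, 2 and 3, and for 2 of 36, 1 of 67 and 3 of 35 of those up to 40 nt. Such reads were few among the short ones.

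Nearly all U3 reads were listed under SNORD3A. It had 68, 71 and 124 reads, and SNORD3B-2, a copy on the minus strand of chromosome 17 (19063920 to 19064136), had 3, 0 and 1. SNORD3B-2 differs from SNORD3A at 1 base, A78C, where the first letter is that of SNORD3A and positions count from the 5′ end, and SNORD3B-1 carries the same difference. The 4 SNORD3B-2 reads ran from 76 to 96, 76 to 185, 61 to 78 and 76 to 216, and all 4 cover base 78. On SNORD3A 39, 24 and 95 reads cover that base. SNORD3C differs by G108A, within the box B motif, and SNORD3D by A4G, C53T and A78C. The pieces from 195 on are the same in all 5 genes, 45 to 67 differs in SNORD3D alone, and 76 to 96 is the same in SNORD3A and SNORD3C. Of the U3 reads 18, 28 and 25 cover no differing base and cannot be assigned to 1 gene. Many of the rest also fit more than 1 gene. Reads that do not cover base 108 do not tell SNORD3A from SNORD3C, and no read tells SNORD3B-1 from SNORD3B-2.

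To set the size of U3 reads against other snoRNAs, the counts of 20 to 24 nt reads and of all other reads were fitted together over the 125 snoRNAs that had 10 or more counts in each library. U3 (the SNORD3A entry) was higher in 20 to 24 nt reads, with a log2 ratio of 3.95 ± 0.66 (SE, n = 3) and an edgeR adjusted p of 2.0e-07, while the median over all tested snoRNAs was -0.49. The fit called 5.60% of snoRNAs higher (7 of 125) and 4.80% lower (6 of 125). U3 had rank 4 by this ratio, after SCARNA15 (8.55 ± 1.25), SNORA22 (8.08 ± 0.90) and SNORD14A (5.14 ± 0.65). In every library the U3 share of 20 to 24 nt reads was above that of the other snoRNAs summed, at 32.4%, 64.8% and 16.8% against 2.56%, 6.15% and 3.0%. The U3 ratio was 3.34 without library 2, 4.61 without library 3 and 1.81 with each distinct read counted once, and it passed the threshold in all 11 alternatives run, with edgeR or DESeq2 adjusted p between 1.8e-10 and 0.0013.

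**Figure D4:**
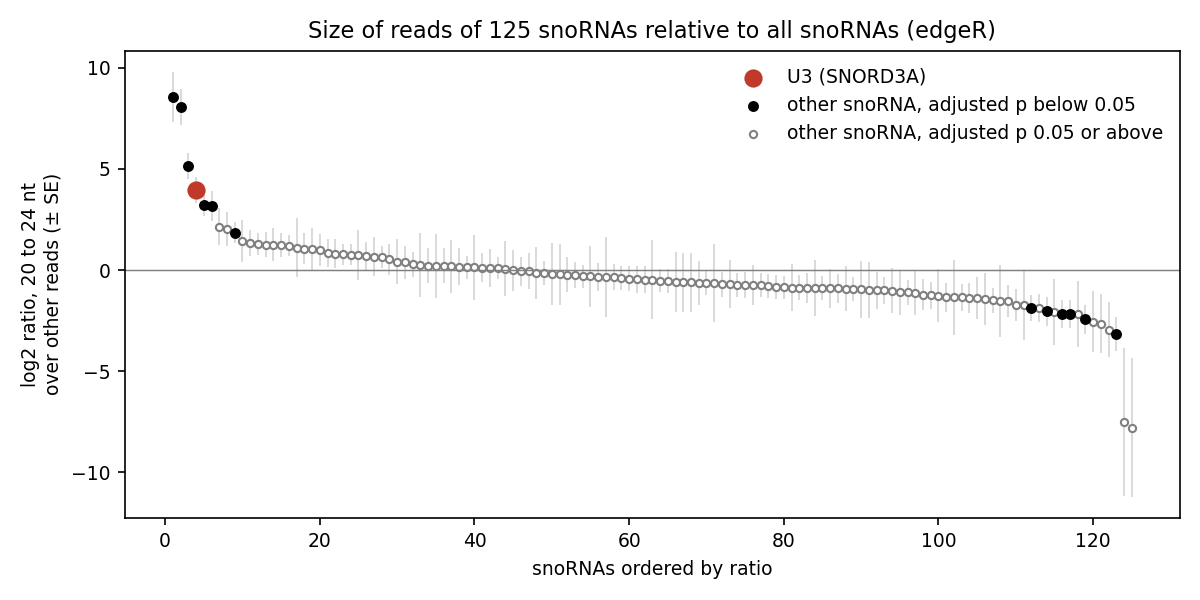
Log2 ratio of 20 to 24 nt reads over other reads (y axis, ± SE from the edgeR fit over 3 libraries) for 125 snoRNAs in descending order (x axis), with U3 in red and other snoRNAs past the threshold in black. U3 is number 4 in this order, at 3.95.

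A list of other snoRNAs was taken that are tied to pre-rRNA processing or, for SNORD13 (U13), to rRNA acetylation. On it SNORD13 and SNORD14A, a U14 copy, were also called higher in 20 to 24 nt reads. Of this list of 10, 7 had reads and 5 were tested. Among the 5, 2 were called higher and 0 lower, against 5.60% and 4.80% of all tested snoRNAs. Their median log2 ratio was 1.25, against -0.49 over all tested snoRNAs. So short a list gives no firm rate. SNORD13, which assists acetylation of the small-subunit rRNA, had a ratio of 3.23 ± 0.54 with an edgeR adjusted p of 2.0e-07, and 29.0%, 58.3% and 4.62% of its reads were of this size. SNORD14A, one of the copies of U14, which pairs with the small-subunit rRNA, had 41.7%, 62.5% and 61.0%. A second U14 copy, SNORD14B, was too low to be tested, and of its 13, 4 and 11 reads 0 were of this size in each library. SNORD118, the U8 snoRNA, needed for the large-subunit rRNA, did not pass (1.25 ± 0.62, edgeR adjusted p = 0.21), and neither did SNORD22, the U22 snoRNA (0.099 ± 0.92, edgeR adjusted p = 0.953), or SNORA73B, a U17 snoRNA (-2.56 ± 1.5, edgeR adjusted p = 0.33). The other U17 copy, SNORA73A, was not tested, with 2 of 10, 1 of 6 and 2 of 5 reads at 20 to 24 nt. Like U3, SNORD118 and SNORD13 had 0 reads that spanned at least 90% of the positions seen. SNORD22 had 47, 19 and 69 such reads.

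None of the other long snoRNAs with enough counts for the test was called higher, where 5.60% of all tested snoRNAs were. So few snoRNAs cannot show a difference from that share. The tested ones read over at least 150 positions, beside U3, were SCARNA9, SNORA73B, SNORA74A and SNORA81, of which 0 were called higher, and their mean shares of 20 to 24 nt reads were 4.20%, 0.538%, 4.11% and 3.74%. Long snoRNAs with fewer counts were not tested. Among them SCARNA16 had 7 of 40, 7 of 7 and 2 of 4 reads at 20 to 24 nt, and SNORD17, the long box C/D snoRNA beside U3, had 0 of 14, 0 of 6 and 2 of 24. The 4 tested ones are box H/ACA snoRNAs or scaRNAs, and the part of RNA length in the U3 value was not tested. By the difference in read length profile over 5 bins (total variation distance of mean shares over 3 libraries), the nearest to U3 was SNORA75 at 20.2%, followed by SNORD15A (24.5%), SNORA27 (33.9%), SNORA73B (39.0%) and SNORA64 (39.4%). Of these SNORA75 (3.19 ± 0.74, edgeR adjusted p = 0.00049) and SNORA27 (1.85 ± 0.54, edgeR adjusted p = 0.0093) were also called higher in 20 to 24 nt reads. Of all tested snoRNAs 5.60% were called higher. The profile includes the 20 to 24 nt share, so these calls follow in part from the choice and are a description. Reads of other box C/D snoRNAs mostly began at the first bases. Reads that started after base 5 were 99.0% of SNORD3A reads, against a median of 11.2% over the other tested box C/D snoRNAs. Of these snoRNAs 11 had a higher share than U3, with SNORD118 (99.1%) and SNORD13 (100%) among them. The most used start of these 11 lay at 7 to 14, except in SNORD13 (18) and SNORD118 (51), against 76 in SNORD3A. Most human snoRNAs are cut from introns while U3 is capped, and the part of this in the contrast of starts was not tested.

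The short U3 fragments were also set beside annotated miRNAs. Among 2370 mature human miRNAs of RefSeq (GRCh38.p14), 0 shared bases 2 to 8 with U3 76-96, 195-216 or 45-67, and 2, miR-185-5p and miR-4306, shared them with U3 194-216. None of the 6 U3 sequences searched, the 5 above and 75-96, was contained in an annotated miRNA or hairpin. In library 1 a second deposited count table lists 137 miRNAs with 60085 counts, with a lowest entry of 11 and a median of 91. It lists the U3 entry with 68 counts, the same number as the SNORD3A reads of library 1. The 23 U3 reads of 20 to 24 nt in that library would lie below 113 of the listed miRNAs, above 23 and level with 1. By place, 8 of these reads began at 75 to 77, 12 belonged to the 3′ arm and 3 to the place at 42 to 67. The 23 reads thus sum several places, while each listed count is of 1 miRNA. The most read single form in library 1, 76 to 96, had 8 reads, below the lowest listed entry of 11.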

How the data were processed

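Small RNA of HEK293 cells was sequenced in 3 libraries, prepared from bead-purified RNA with an Ion Total RNA-Seq Kit, per the labels' protocols. The deposited files list raw read counts, per the file headers, by snoRNA entry, read length, first position and last position. GRCh38.p10 is the build in the submitters' processing notes. Which aligner and filters the authors used is not stated in these sources. A second deposited table of counts was used for library 1, and its 2 columns that fit no title were left out. Libraries are numbered in the order of their titles. Separate cultures are not stated, so the p-values reflect a spread that may be technical.

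Entries were named through RefSeq symbols and synonyms (GRCh38.p14, 253 of 260 matched). U3 records were matched exactly, and none ran on the opposite strand. Shares have exact binomial intervals at 95% and a floor of 3 counts. Reads carry no molecular identifiers. Sequences and coordinates came from GENCODE 29 (GRCh38), the fold from RNAfold 2.7.2. Read size was tested with edgeR 4.0.16 (quasi-likelihood, TMM over 6 columns, library as block, two-sided, Benjamini-Hochberg over 125 snoRNAs, threshold 0.05), with DESeq2 1.42.0 as an alternative. On counts simulated for 125 snoRNAs (25 changed, dispersion 0.1, 20 runs), this comparison recovered 35.8% of 4-fold and 99.4% of 16-fold changes, and 12.0% and 15.6% of its calls were false. Other software was R 4.3.3, Python 3.11.15, SciPy 1.17.1, matplotlib 3.10.9, pandas 2.3.3 and NumPy 2.4.6.

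The members, the lists and the tests were chosen with earlier results of these data known. Named were both U3 entries, a list of 10 pre-rRNA processing snoRNAs (SNORD13, tied to rRNA acetylation, among them) and tested snoRNAs read over 150 positions or more. Also named were the 5 nearest length profiles and the 5 most read U3 fragments overall and of 20 to 24 nt. Clusters of starts or ends (within 1 nt) with at least 5% of U3 reads were named too. SNORA22, SCARNA15, SCARNA16 and SNORD17, and other places in U3, were named after their values were seen.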

Additional observations from a re-analysis of the deposited data

How the results depend on the processing

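With each distinct read counted once, the mean U3 share of snoRNA counts was 1.18% and the mean share of U3 reads within the 3′ part 64.5%, and the size fit called 2 snoRNAs higher and 1 lower. With the boundary of the 3′ part 5 nt later, which by construction drops the reads from base 76, the share within the 3′ part was 30.0% and its SD over libraries 8.7, against 2.6 as reported. With 18 to 25 nt as the short class, 12 snoRNAs were called higher. Without 1 library each, the size fit called 5 to 8 snoRNAs higher and 0 to 3 lower (0 without library 2, 1 without library 1 and 3 without library 3, by edgeR), while U3 stayed past the threshold. The cause of these changes other than the boundary was not tested. The U3 log2 ratio was 3.99 with no replicate block for the library, and that fit called 9 snoRNAs higher and 4 lower. Of all 68 alternative values, 59 were scored as unchanged and 0 reversed. For this a log2 ratio had to keep its direction and threshold side, and a share to move by less than the spread between libraries. A count of calls could change up to a set fold and still be scored as unchanged. With 71 to 125 U3 reads per library, a fragment with 0 reads in a library may still make up 4.23% (libraries 1 and 2) or 2.40% (library 3) of its U3 reads.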
